A study of Homo sapiens with 12 samples.

Results

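Eph receptors and ephrins were followed in MCF10A, a human mammary epithelial cell line that does not form tumours, through 10 genes: the receptors EPHA1, EPHA2, EPHA4, EPHB2, EPHB3, EPHB4 and EPHB6 and the ligands EFNA1, EFNB1 and EFNB2. They were chosen by symbol, as 10 of 23459 gene IDs in the count table and 10 of the 22 Eph and ephrin genes it holds. Earlier results of these data were known at the choice, so shares called among the members are not those of a set picked blind. All cells carried a doxycycline-inducible YAP5SA allele, a mutant of the coactivator YAP that escapes inhibition by the Hippo kinases, and kept their own JUN and YAP1 genes. They had been infected with a lentivirus for JUN or with an empty one and put under antibiotic selection, and then received doxycycline (Dox, 100 ng/ml, for 16 h by the study's methods) or its solvent ethanol (EtOH). The 4 groups are named vector EtOH and vector Dox for the empty vector, and JUN EtOH and JUN Dox for the JUN vector, with 3 libraries of poly(A) RNA in each. No group received doxycycline without the YAP5SA allele, so effects of the drug and of the allele cannot be told apart. All groups derive from 1 cell line, and whether the inducible cells were a clone or a pool is not given in the sources used here. The study's methods call the replicates biological, while the labels only number them, so the p-values measure the spread between these libraries.

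Eph receptors form the largest family of receptor tyrosine kinases and bind ephrins on the surface of neighbouring cells. A-type ephrins are anchored to the membrane by a lipid and mainly bind EphA receptors, whereas B-type ephrins span the membrane, mainly bind EphB receptors and can themselves signal back into the cell that carries them. In epithelia the system is known for cell sorting, boundary formation, repulsion and control of junctions, and EPHA2 with its ligand EFNA1 is a well-studied pair in mammary cells.

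The promoters of 4 members are shown because these genes carry the main patterns: EPHA2 rose with YAP5SA, EFNA1 fell where JUN and YAP5SA were combined, and EFNB1 and EFNB2 rose with JUN. Each sequence is the 250 bases before the RefSeq transcript start, read 5′ to 3′ on the gene's strand, and capitals mark matches to the motifs searched.
EPHA2 (GRCh38.p14, chr1:16156070-16156319, - strand): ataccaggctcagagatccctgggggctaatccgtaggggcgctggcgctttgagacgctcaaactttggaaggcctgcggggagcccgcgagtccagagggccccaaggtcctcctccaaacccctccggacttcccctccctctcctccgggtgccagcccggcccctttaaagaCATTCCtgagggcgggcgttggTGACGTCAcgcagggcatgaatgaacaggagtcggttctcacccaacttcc
EFNA1 (GRCh38.p14, chr1:155127626-155127875, + strand): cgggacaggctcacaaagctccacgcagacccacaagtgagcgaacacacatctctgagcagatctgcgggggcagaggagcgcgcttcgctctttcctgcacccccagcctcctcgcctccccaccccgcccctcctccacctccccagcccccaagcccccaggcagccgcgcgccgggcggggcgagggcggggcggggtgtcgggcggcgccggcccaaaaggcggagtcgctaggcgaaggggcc
EFNB1 (GRCh38.p14, chrX:68828771-68829020, + strand): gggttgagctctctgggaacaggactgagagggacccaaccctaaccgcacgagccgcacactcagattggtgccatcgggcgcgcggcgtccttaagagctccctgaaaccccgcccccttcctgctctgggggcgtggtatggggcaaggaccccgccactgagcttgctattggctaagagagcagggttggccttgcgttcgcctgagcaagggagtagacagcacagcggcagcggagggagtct
EFNB2 (GRCh38.p14, chr13:106535663-106535912, - strand): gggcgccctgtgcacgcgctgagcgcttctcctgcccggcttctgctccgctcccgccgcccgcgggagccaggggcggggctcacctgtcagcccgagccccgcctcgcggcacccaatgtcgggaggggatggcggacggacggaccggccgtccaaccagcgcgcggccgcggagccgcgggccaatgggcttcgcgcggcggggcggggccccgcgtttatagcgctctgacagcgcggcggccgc
The motifs were the AP-1 site TGANTCA, the TEAD hexamer CATTCC or its reverse complement GGAATG, and the cAMP response element TGACGTCA, which JUN-containing dimers can also bind. Both strands were searched in windows from 250 bases before to 50 bases after the start, and the motifs do not overlap each other in the promoters shown. EPHA2 was the 1 of 10 members with the TEAD hexamer (CATTCC at position -73) and the 1 of 10 with TGACGTCA (at position -51), counted from the start. The AP-1 motif was found in the windows of 0 of 10 members. Of 35116 RefSeq promoter windows, 14.0% held the TEAD hexamer, 1.85% TGACGTCA and 7.71% the AP-1 motif. A match is a description of these letters only, and no binding was measured here. EPHA2 was also the 1 of 10 members on the list of top YAP-induced genes that the study drew up in a separate experiment.

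Library totals ranged from 18594867 to 28993487 counts. Levels are counts scaled to a library's total over the genes tested, adjusted by its TMM factor of 0.963 to 1.07 (CPM). A count of 3, taken as the detection floor, corresponded to 0.107 to 0.15 CPM. Floors cover counting error only. JUN, the gene carried by the vector, was at 35.5 to 55.0 CPM in vector EtOH at 186.5 to 194.4 CPM in vector Dox, at 1064 to 1399 CPM in JUN EtOH and at 1146 to 1325 CPM in JUN Dox. The YAP target CCN1 was at 56.2 to 78.4 CPM in vector EtOH and at 1802 to 1978 CPM in vector Dox. CCN2, another YAP target, was at 12.8 to 20.0 CPM and 169.9 to 205.8 CPM in these groups. YAP1 was at 171.1 to 191.3 CPM in vector EtOH and 216.1 to 272.9 CPM in vector Dox. With the JUN vector it was at 210.5 to 249.4 CPM without and 207.8 to 364.9 CPM with induction. By the edgeR test described below, YAP1 did not pass on induction in vector cells (log2 0.40, adjusted p = 0.0819) or JUN cells (log2 0.255, adjusted p = 0.308). The 7 markers of basal mammary epithelium all passed the filter, with summed levels without induction of 7452 to 7867 CPM in vector and 5799 to 7393 CPM in JUN cells, and with induction of 3822 to 4996 CPM and 3527 to 5619 CPM. KRT5 was the largest part of this sum, with a mean of 4615 CPM in vector EtOH, and single markers differed. Means of KRT14, KRT17, TP63 and EGFR were higher in JUN EtOH than in vector EtOH, and those of KRT5, CDH3 and ITGB4 lower. On induction the mean of EGFR was higher in vector and JUN cells, and those of the other basal markers lower. The epithelial markers CDH1 and EPCAM summed to 268 to 284 CPM in vector and 155 to 169 CPM in JUN cells without induction, and to 284 to 304 CPM and 91.4 to 114 CPM with it. The mean of EPCAM was 145.9 CPM in vector EtOH and 43.0 CPM in JUN EtOH, while that of CDH1 was 129.4 and 120.2 CPM. In JUN Dox CDH1 was at a mean of 58.7 CPM and EPCAM at 42.5 CPM. Of 5 markers of endothelial cells, which also use EFNB2 and EPHB4, 1 passed the filter, PECAM1, with at most 48 counts. Its mean was 1.75 CPM in vector EtOH, 0.06 CPM in vector Dox, 0.471 CPM in JUN EtOH and 0.086 CPM in JUN Dox. VWF had at most 11 counts in any library, KDR at most 6, and CDH5 and TIE1 at most 3. Summed endothelial marker levels were 2.02 to 2.2 CPM in vector and 0.616 to 1.1 CPM in JUN cells without induction, and 0.131 to 0.413 CPM and 0.1 to 0.821 CPM with it. Of 5 fibroblast markers 3 passed, with PDGFRA at mean levels of 92.2 to 132 CPM, while COL1A2 and COL3A1 had at most 1 and 2 counts. Of 4 leukocyte markers 1 passed, CD14, and the list summed to 24.3 to 31.1 CPM in vector and 9.2 to 11.8 CPM in JUN cells without induction, and to 4.34 to 5.95 CPM and 1.46 to 3.52 CPM with it, with CD3E at 0 counts throughout. Of the hormone receptor genes, ESR1 had at most 20 counts and PGR at most 3, and of 3 neuronal markers 2 passed, with SNAP25 at most at 4 counts. The part of these markers in the results for Eph and ephrin genes was not tested, and in bulk RNA fewer cells of a type and less RNA per cell cannot be told apart.

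All 10 members passed the filter on low counts. Genes were tested with the quasi-likelihood test of edgeR in 1 fit of all 12 libraries over 14775 genes, log2 fold changes are given with their standard error (SE), and calls were made where the adjusted p (Benjamini-Hochberg) was under 0.05. The comparisons share groups, so their counts are not independent of each other.

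**Figure D1:**
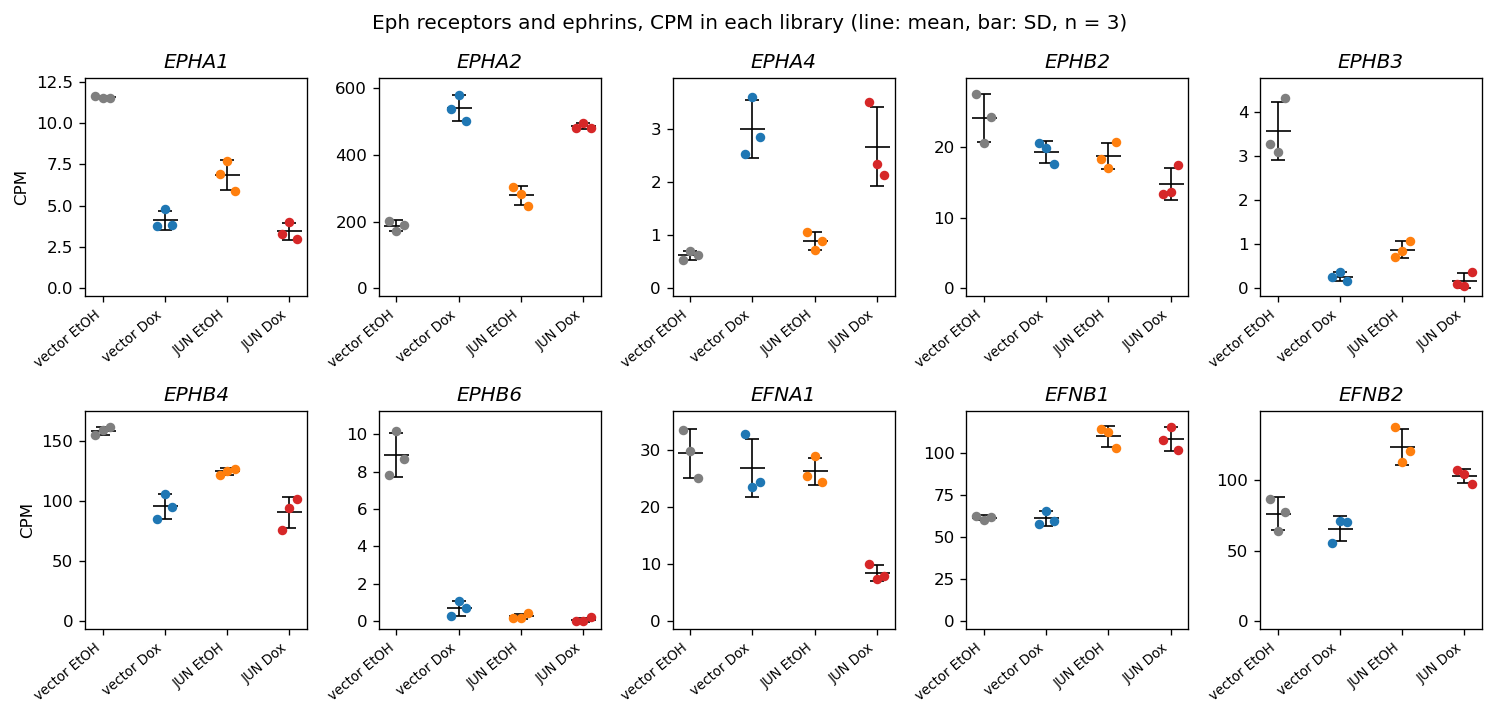
Levels of the 10 members in each library in CPM (y axis, linear, 1 scale per gene) for the 4 groups (x axis). Points are libraries, the horizontal line is the mean and the bar the SD of 3 libraries. EPHA2 is lowest in vector EtOH and EFNA1 lowest in JUN Dox, while EFNB1 and EFNB2 separate JUN from vector libraries.

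The make-up of the 10 members was compared on a scale that allows for gene length, CPM per kilobase of exon. The sums leave out the 12 other Eph and ephrin genes. Among these are EFNA5, at mean levels of 52.7 to 56.0 CPM, and EPHA5, whose value is uncertain. On it EPHA2 was the most abundant member in all 4 groups and EPHB4 followed among the receptors. EPHA2 made up 58.9 ± 2.18% (SD, n = 3) of the summed CPM per kilobase of the 7 receptors in vector EtOH and 88.0 ± 0.88% in vector Dox. With the JUN vector its share was 74.7 ± 2.44% in JUN EtOH and 87.7 ± 1.38% in JUN Dox. The share of EPHB4 was 32.1 ± 1.87%, 10.0 ± 0.84%, 21.7 ± 2.11% and 10.5 ± 1.34% in the same order. Among these 7 receptors, EPHA2 thus made up most of the sum in each group. The ranges of its share did not overlap between vector EtOH and any other group. Among the 3 ephrins EFNB1 took 39.4 ± 2.47% of the summed CPM per kilobase in vector EtOH and 41.9 ± 2.16% in vector Dox, and with the JUN vector 47.4 ± 1.08% without and 57.2 ± 1.84% with induction. In the same order the share of EFNA1 was 28.7 ± 3.02%, 28.3 ± 5.62%, 17.4 ± 1.62% and 6.86 ± 1.09%. The order of the ephrins depended on the length used. Per kilobase of the longest transcript, vector EtOH had means of 18.98 CPM for EFNA1, 18.6 CPM for EFNB1 and 15.23 CPM for EFNB2. Reads that cross exon junctions were largely lost in alignment, and reads from introns may be in the counts, since how introns were handled is not given in the sources used here and EPHA5, described further on, followed a gene with a pseudogene outside its exons. Levels per kilobase of exon and the shares made from them are therefore approximate.

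**Figure D2:**
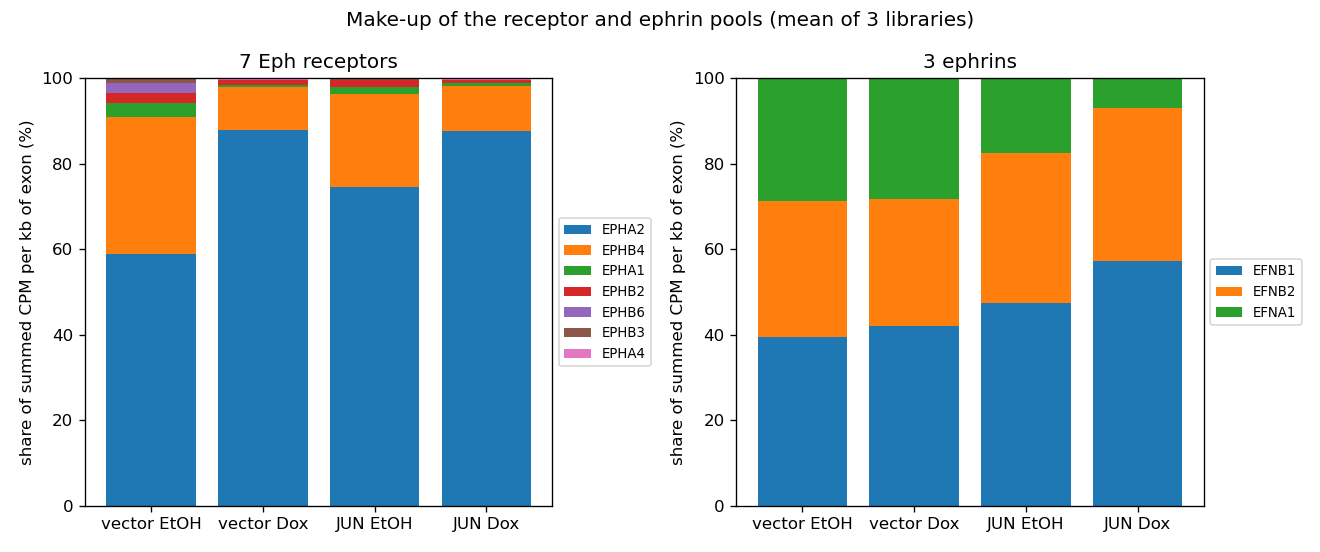
Share of each member in the summed CPM per kilobase of exon (y axis, percent) of the 7 Eph receptors (left) and the 3 ephrins (right), as the mean of 3 libraries per group (x axis, 4 groups). EPHA2 goes from 58.9% of these 7 receptors in vector EtOH to 88.0% in vector Dox, and EFNA1 from 28.7% of these 3 ephrins in vector EtOH to 6.86% in JUN Dox. Other family genes are not in the sums.

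Induction of YAP5SA in vector cells addresses what active YAP does to these genes without the JUN vector. The cells' own JUN rose 3.98-fold in this comparison (log2 1.99, SE 0.16, adjusted p = 3.09e-07, edgeR), and its part in the results was not tested. The receptors moved apart: EPHA2 and EPHA4 rose, EPHA1, EPHB3, EPHB4 and EPHB6 fell, and none of the 3 ephrins passed the test. In all, 6 of 10 members were called, 2 higher and 4 lower, against 30.1% of all genes tested called in either direction, 15.6% higher and 14.4% lower. The median log2 fold change of the members was -0.27, beside 0.007 over all genes.

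EPHA2, an EphA receptor tyrosine kinase that also signals without ligand and is abundant in many epithelial tumours (Entrez 1969, chr1:16450832-16482564, GRCh37, - strand), stood at 202.7, 171.9 and 189.5 CPM in vector EtOH and at 538.3, 579.5 and 502.5 CPM in vector Dox. Every induced library exceeded every uninduced library, and the rise was 2.87-fold (log2 1.52, SE 0.11, adjusted p = 1.14e-07, edgeR). EPHA4, a receptor that binds ephrins of both types (chr2:222282747-222438922, GRCh37, - strand), was near the low end of what could be measured, with 14 counts in each vector EtOH library, or 0.532, 0.699 and 0.628 CPM, and 58, 80 and 69 counts in vector Dox, or 2.53, 3.61 and 2.85 CPM. The groups did not overlap, and EPHA4 rose 4.83-fold (log2 2.27, SE 0.28, adjusted p = 2.88e-05, edgeR). Both genes that rose are EphA receptors, but the remaining EphA member went the other way. EPHA4 shares 353 exon bases with a long noncoding RNA on the opposite strand.

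EPHA1, the founding member of the family (chr7:143087382-143105949, GRCh37, - strand), was at 11.7, 11.5 and 11.5 CPM in vector EtOH and at 3.75, 4.78 and 3.84 CPM in vector Dox. It fell 2.81-fold (log2 -1.49, SE 0.16, adjusted p = 5.16e-06, edgeR), with no overlap between the groups. EPHA1 shares 82 exon bases with ZYX on the opposite strand, and ZYX held 6540.3 counts on average against 149.1 for EPHA1. Use of strand in the counting is not stated, so a contribution of ZYX reads to EPHA1 cannot be told apart. ZYX itself had mean levels of 302.8 CPM in vector EtOH and 290.7 CPM in vector Dox.

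Among the EphB receptors, EPHB3, known for positioning cells in the intestinal epithelium (chr3:184279573-184300196, GRCh37, + strand), had 3.27, 3.09 and 4.31 CPM in vector EtOH and 0.262, 0.361 and 0.165 CPM in vector Dox. EPHB6, a receptor without kinase activity (chr7:142552823-142568847, GRCh37, + strand), had 7.83, 10.2 and 8.71 CPM in vector EtOH and 0.262, 1.08 and 0.702 CPM in vector Dox. Vector Dox libraries thus lay close to the detection floor for both, at 4 to 8 counts for EPHB3 and 6 to 24 counts for EPHB6. EPHB3 fell 13.4-fold (log2 -3.75, SE 0.41, adjusted p = 7.53e-06, edgeR). EPHB6 fell 13-fold (log2 -3.70, SE 0.41, adjusted p = 7.87e-06, edgeR). EPHB4, the main partner of EFNB2 (chr7:100400187-100425145, GRCh37, - strand), was at 155.1, 159.0 and 162.1 CPM in vector EtOH and 85.3, 106.2 and 95.5 CPM in vector Dox. Its fall was smaller, 1.66-fold (log2 -0.73, SE 0.11, adjusted p = 0.000151, edgeR), and the groups did not overlap. EPHB4 shares 69 exon bases with SLC12A9 on the opposite strand, a gene with 714.2 counts on average against 2710.0 for EPHB4, and the mean of SLC12A9 was 40.3 CPM in vector EtOH and 27.7 CPM in vector Dox. EPHB2, another EphB kinase (chr1:23037332-23247993, GRCh37, + strand), was at 27.4, 20.6 and 24.3 CPM in vector EtOH and 20.5, 19.8 and 17.6 CPM in vector Dox, a log2 difference of -0.32 that did not pass (95% confidence interval -0.61 to -0.03, adjusted p = 0.0893, edgeR). It passed without vector EtOH replicate 2 (adjusted p = 0.0409) and with upper-quartile scaling (adjusted p = 0.0469).

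None of the 3 ephrins passed the test on induction in vector cells. EFNA1, the A-type ligand of EPHA2 (chr1:155100352-155107375, GRCh37, + strand), was at 33.5, 29.8 and 25.0 CPM in vector EtOH and 32.8, 23.5 and 24.4 CPM in vector Dox. EFNB1 (chrX:68048864-68062003, GRCh37, + strand) and EFNB2 (chr13:107142093-107188010, GRCh37, - strand) are transmembrane ligands of EphB receptors. EFNB1 was at 62.4, 59.9 and 62.0 CPM in vector EtOH and 57.6, 65.6 and 59.5 CPM in vector Dox. EFNB2 was at 86.9, 63.8 and 77.7 CPM in vector EtOH and 55.1, 70.8 and 70.6 CPM in vector Dox. The groups overlapped for all 3 ephrins. The 95% confidence intervals of the log2 difference were -0.45 to 0.19 for EFNA1, -0.20 to 0.18 for EFNB1 and -0.49 to 0.06 for EFNB2, with adjusted p of 0.555, 0.933 and 0.222 in edgeR.

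JUN overexpression without induction addresses what JUN does when YAP5SA is off. Both B-type ephrins rose, EPHA2 rose by less than with YAP5SA, and 5 of the 7 receptors fell. In all, 8 of 10 members were called, 3 higher and 5 lower, against 39.0% of all genes, 20.1% higher and 18.9% lower. The members' median log2 fold change was -0.26, beside 0.001 over all genes.

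EFNB1 stood at 113.9, 112.0 and 102.7 CPM in JUN EtOH, against 59.9 to 62.4 CPM in vector EtOH, and rose 1.78-fold (log2 0.83, SE 0.09, adjusted p = 5.83e-06, edgeR). EFNB2 stood at 137.4, 112.4 and 120.8 CPM, against 63.8 to 86.9 CPM, and rose 1.62-fold (log2 0.70, SE 0.13, adjusted p = 0.000692, edgeR). For each of these ligands every JUN EtOH library exceeded every vector EtOH library. EFNB2 shares 1822 exon bases with an unnamed long noncoding RNA on the opposite strand, so its counts are uncertain to that extent. EFNA1, the A-type ligand, had 25.5, 28.9 and 24.4 CPM in JUN EtOH, within or just under the range of vector EtOH, and did not pass (log2 -0.165, 95% confidence interval -0.49 to 0.16, adjusted p = 0.407, edgeR).

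EPHA2 was at 305.2, 283.8 and 246.3 CPM in JUN EtOH, above all vector EtOH and below all vector Dox libraries. Its rise was 1.48-fold (log2 0.57, SE 0.11, adjusted p = 0.00103, edgeR). EPHA4 had 24, 17 and 19 counts, or 1.06, 0.716 and 0.892 CPM, just above the vector EtOH libraries, and its log2 difference of 0.52 did not pass (95% confidence interval -0.16 to 1.21, adjusted p = 0.21, edgeR). EPHA1 fell to 6.91, 7.71 and 5.91 CPM, 1.69-fold lower with no overlap (log2 -0.76, SE 0.15, adjusted p = 0.00129, edgeR).

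EPHB6 was the member with the deepest fall, to 4, 4 and 9 counts in JUN EtOH, or 0.176, 0.169 and 0.422 CPM, from 194 to 206 counts in vector EtOH. The fitted change was 34.6-fold (log2 -5.11, SE 0.47, adjusted p = 1.33e-06, edgeR). EPHB3 fell to 0.704, 0.843 and 1.08 CPM, 4.06-fold lower (log2 -2.02, SE 0.34, adjusted p = 0.000385, edgeR). EPHB4 fell to 122.0, 125.1 and 127.2 CPM, 1.27-fold lower with no overlap (log2 -0.35, SE 0.11, adjusted p = 0.0213, edgeR). EPHB2 was at 18.3, 17.0 and 20.7 CPM, overlapping the vector EtOH range, and fell 1.29-fold (log2 -0.37, SE 0.14, adjusted p = 0.0446, edgeR). The calls for EPHB4 and EPHB2 are the least stable of the 8. For EPHB4 the call was lost without vector EtOH replicate 2 (adjusted p = 0.056), vector EtOH replicate 3 (0.0701), JUN EtOH replicate 1 (0.0771) or JUN EtOH replicate 2 (0.0589), and with a correction for GC content (0.0907, or 0.0831 with the replicate number as a block). For EPHB2 it was lost without vector EtOH replicate 1 (adjusted p = 0.184), vector EtOH replicate 3 (0.104), vector Dox replicate 2 (0.0507), vector Dox replicate 3 (0.0506), JUN EtOH replicate 1 (0.123), JUN EtOH replicate 2 (0.156) or JUN Dox replicate 2 (0.0543). It was also lost with no filter (0.0505), with a mean of at least 5 CPM (0.0516), with GC offsets (0.0742) and with these and the replicate block (0.0715).

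**Figure D3:**
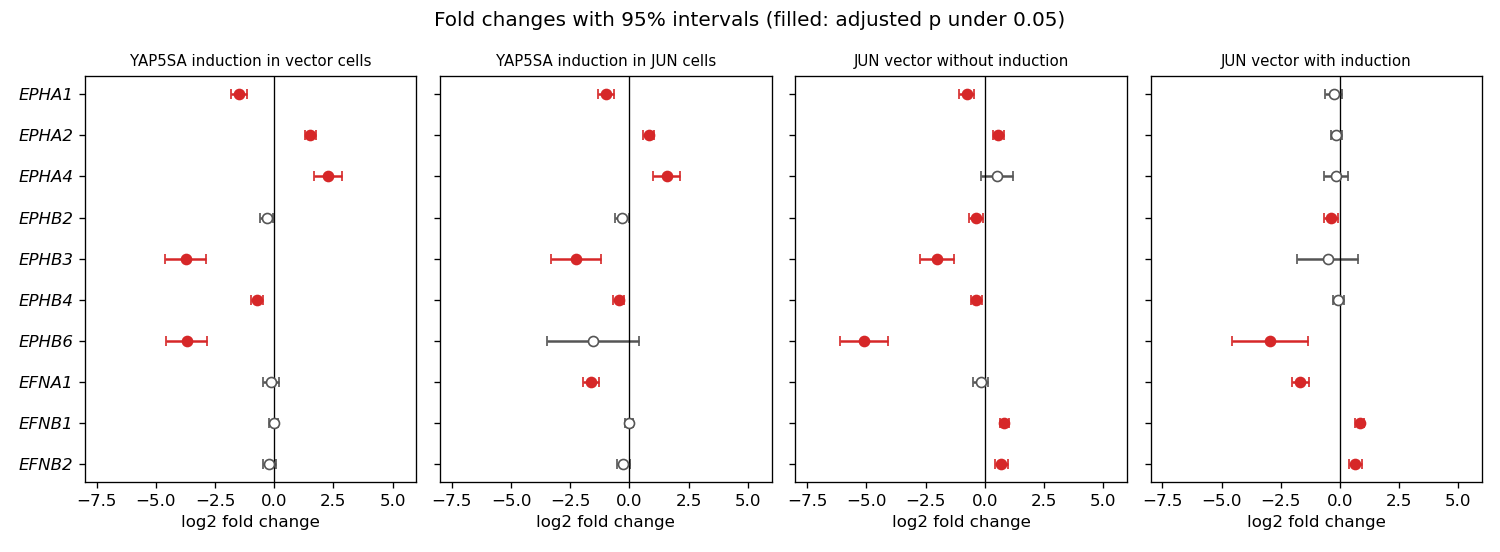
Log2 fold change (x axis) of the 10 members (y axis) with 95% confidence intervals in 4 comparisons, 1 per panel. Filled red points passed an adjusted p under 0.05 in edgeR and open points did not. EPHB3 and EPHB6 show the lowest values on induction in vector cells (-3.75 and -3.70), and EFNB1 sits at 0.83 with JUN both without and with induction.

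Induction of YAP5SA in cells with JUN asks whether the response is the same once JUN is high. Again 6 of 10 members were called, 2 higher and 4 lower, against 21.4% of all genes, 11.2% higher and 10.3% lower. The receptors EPHA2 and EPHA4 rose, EPHA1, EPHB3 and EPHB4 fell, and EFNA1 now fell as well. The median log2 fold change was -0.39, beside 0.003 over all genes.

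EFNA1 dropped to 10.1, 7.39 and 7.99 CPM in JUN Dox, from 24.4 to 28.9 CPM in JUN EtOH. All 3 JUN Dox libraries lay below all 9 other libraries, whose lowest value was 23.5 CPM. The fall was 3.11-fold (log2 -1.64, SE 0.16, adjusted p = 4.91e-06, edgeR). EPHA2, its receptor, moved the other way, to 482.2, 496.0 and 480.5 CPM, 1.75-fold above JUN EtOH (log2 0.80, SE 0.11, adjusted p = 0.000107, edgeR). EPHA4 reached 3.51, 2.33 and 2.13 CPM, 2.96-fold higher (log2 1.57, SE 0.27, adjusted p = 0.000856, edgeR), and EPHA1 went to 3.31, 4.02 and 2.98 CPM, 2-fold lower (log2 -0.997, SE 0.16, adjusted p = 0.000488, edgeR).

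EPHB3 had 2, 1 and 10 counts in JUN Dox, or 0.100, 0.043 and 0.355 CPM, and fell 4.74-fold (log2 -2.25, SE 0.49, adjusted p = 0.00466, edgeR). Without JUN Dox replicate 3 the log2 value was -3.54. EPHB6 had 0, 0 and 6 counts, and from the low JUN EtOH level its log2 difference of -1.53 did not pass (95% confidence interval -3.47 to 0.40, adjusted p = 0.264, edgeR). It passed without JUN Dox replicate 3 (adjusted p = 0.0361), the 1 library of the group with any EPHB6 count, when the floor put JUN Dox at least 1.76-fold lower. EPHB4 was at 76.4, 94.5 and 101.6 CPM, below all JUN EtOH libraries, and fell 1.37-fold (log2 -0.46, SE 0.11, adjusted p = 0.00796, edgeR). EPHB2, at 13.3, 13.6 and 17.4 CPM, did not pass (log2 -0.33, adjusted p = 0.104, edgeR), but did without JUN Dox replicate 3 (adjusted p = 0.0354). EFNB1 (107.2, 115.4 and 101.6 CPM) and EFNB2 (107.3, 103.9 and 97.4 CPM) did not pass either, with 95% confidence intervals of the log2 difference of -0.21 to 0.17 and -0.53 to 0.01.

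JUN overexpression on top of induced YAP5SA called 5 of 10 members, 2 higher and 3 lower, against 35.6% of all genes, 18.4% higher and 17.2% lower. All 3 ephrins passed, and 2 of 7 receptors. EFNB1 was 1.77-fold higher in JUN Dox than in vector Dox (log2 0.83, SE 0.09, adjusted p = 6.23e-06, edgeR) and EFNB2 1.57-fold higher (log2 0.65, SE 0.13, adjusted p = 0.00124, edgeR), both with no overlap. EFNA1 was 3.18-fold lower (log2 -1.67, SE 0.16, adjusted p = 2.08e-06, edgeR). EPHA2 did not pass: all 3 JUN Dox libraries were under the 3 vector Dox libraries, with a log2 difference of -0.15 (95% confidence interval -0.38 to 0.08, adjusted p = 0.291, edgeR). EPHA1, EPHA4, EPHB3 and EPHB4 did not pass either, at log2 differences of -0.26, -0.18, -0.52 and -0.07. Without JUN Dox replicate 3 the value of EPHB3 was -1.82 (adjusted p = 0.0619). EPHB6 was lower (log2 -2.95, SE 0.75, adjusted p = 0.00704, edgeR). Without JUN Dox replicate 3 the group held 0 counts of EPHB6, and a floor of 3 counts per library put it at least 4.7-fold lower than vector Dox (adjusted p = 0.00158). EPHB2 was 1.30-fold lower with no overlap (log2 -0.38, SE 0.14, adjusted p = 0.0446, edgeR). That call was lost without vector EtOH replicate 3 (adjusted p = 0.0661), vector Dox replicate 1 (0.121), vector Dox replicate 2 (0.0949), JUN EtOH replicate 1 (0.0594), JUN EtOH replicate 2 (0.0531), or replicate 1 (0.14) or 2 (0.145) of JUN Dox. It was also lost with no filter (0.056), with a mean of at least 5 CPM (0.0505), with GC offsets (0.0541) and with only the libraries compared (0.0959).

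The interaction, the log2 induction by YAP5SA with the JUN vector minus that with the empty vector, asks directly whether JUN changes the response. Of the 10 members 2 were called, EFNA1 and EPHA2, both lower, against 1.12% of all genes, 0.291% higher and 0.826% lower. EFNA1 had an interaction of -1.503 (SE 0.22, 95% confidence interval -1.97 to -1.03, adjusted p = 0.002, edgeR), from a log2 induction of -0.13 in vector cells and -1.64 in JUN cells. It was called under all 20 alternatives run, with adjusted p up to 0.0104. EPHA2 had an interaction of -0.72 (SE 0.15, 95% confidence interval -1.05 to -0.39, adjusted p = 0.0337, edgeR), from 1.52 in vector cells and 0.80 in JUN cells. EPHA2 was already 1.48-fold higher in JUN EtOH than in vector EtOH, while its levels with induction were near each other, at 540.1 ± 38.5 CPM in vector Dox and 486.2 ± 8.50 CPM in JUN Dox (SD, n = 3).

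The call for EPHA2 depended on single libraries, although its direction did not. It was lost without vector EtOH replicate 1 (adjusted p = 0.0519), vector EtOH replicate 2 (0.115), vector EtOH replicate 3 (0.108), vector Dox replicate 2 (0.0884), vector Dox replicate 3 (0.0523), JUN EtOH replicate 1 (0.122), JUN EtOH replicate 2 (0.101), or replicate 2 (0.0875) or 3 (0.0744) of JUN Dox. Over all alternatives its adjusted p ranged from 0.000111 in DESeq2 to 0.122. The other 8 members did not pass. Their intervals were wide for the weakly expressed EPHB3 (1.499, -0.05 to 3.05) and EPHB6 (2.17, -0.41 to 4.74) and narrow for EFNB1 (-0.01, -0.28 to 0.26) and EFNB2 (-0.05, -0.43 to 0.34). Without JUN Dox replicate 3 the interaction of EPHB3 was 0.20.

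**Figure D4:**
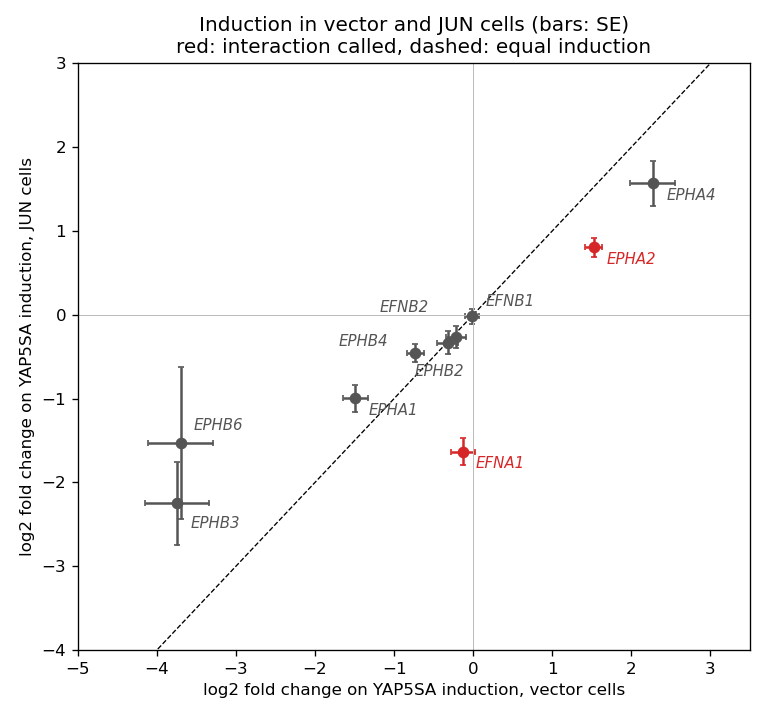
Log2 fold change on YAP5SA induction in vector cells (x axis) and in JUN cells (y axis) for the 10 members, with bars of 1 SE. The dashed line marks equal induction, and red marks members whose interaction passed an adjusted p under 0.05 in edgeR. EFNA1 (-0.13 and -1.64) and EPHA2 (1.52 and 0.80) lie below the line, as does EPHA4, whose interaction did not pass.

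Set against vector cells given ethanol, the combination of JUN and YAP5SA called 10 of 10 members, 4 higher and 6 lower, against 38.2% of all genes, 20.6% higher and 17.6% lower. EPHA4 was 4.26-fold, EPHA2 2.59-fold, EFNB1 1.76-fold and EFNB2 1.35-fold higher in JUN Dox than in vector EtOH. EPHB3 was 19.2-fold, EFNA1 3.48-fold, EPHA1 3.37-fold, EPHB4 1.75-fold and EPHB2 1.63-fold lower, and the log2 change of EPHB6 was -6.65. The call for EFNB2 (log2 0.43, SE 0.13, adjusted p = 0.0148, edgeR) was lost without vector EtOH replicate 2 (adjusted p = 0.0819) or JUN Dox replicate 1 (0.0509). Without JUN Dox replicate 3 the log2 value of EPHB3 was -5.56, on 1 and 2 counts, and EPHB6 had 0 counts, at least 61.3-fold lower than vector EtOH by the same floor.

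JUN alone and YAP5SA alone were also set side by side. Between JUN EtOH and vector Dox 7 of 10 members were called, 5 higher and 2 lower with JUN, against 54.5% of all genes, 26.9% higher and 27.6% lower. EFNB1 and EFNB2 were higher with JUN alone (log2 0.85, SE 0.09, and 0.92, SE 0.13), as were EPHB3 (1.72, SE 0.47), EPHA1 (0.73, SE 0.16) and EPHB4 (0.38, SE 0.11), whereas EPHA2 (-0.96, SE 0.11) and EPHA4 (-1.75, SE 0.27) were higher with YAP5SA alone. Adjusted p for these 7 ran from 2e-06 to 0.00858 in edgeR. EPHB6 did not pass (-1.41, adjusted p = 0.0617). It did without vector Dox replicate 1 (adjusted p = 0.014), JUN EtOH replicate 3 (0.0393) or JUN Dox replicate 3 (0.0335), and in DESeq2 (0.0162).

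Ordering the 4 groups by level put the members into a few arrangements. EPHA1, EPHB3 and EPHB4 shared the order vector EtOH, JUN EtOH, vector Dox, JUN Dox from high to low, and in each of them only vector Dox and JUN Dox did not differ beyond the threshold. EPHA2 and EPHA4 both ran vector Dox, JUN Dox, JUN EtOH, vector EtOH. Vector Dox and JUN Dox did not differ beyond the threshold for either, nor did JUN EtOH and vector EtOH for EPHA4. EPHB6 ran vector EtOH, vector Dox, JUN EtOH, JUN Dox, and so did EFNA1, with the step out of vector EtOH passing for EPHB6 and the step into JUN Dox for EFNA1. EPHB2 had that order too, without a pair of neighbours passing the test. EFNB1 and EFNB2 both ran JUN EtOH, JUN Dox, vector EtOH, vector Dox, and the step between JUN Dox and vector EtOH was the 1 that passed.

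Across the 12 libraries the members varied together in blocks. Pearson's r of log2 CPM was 0.952 for EPHA2 and EPHA4, 0.948 for EPHB3 and EPHB4, 0.941 for EPHA1 and EPHB4, 0.904 for EFNB1 and EFNB2, and -0.925 for EPHA1 and EPHA2. These values describe libraries that share 4 treatments, and no test was made. Outside the family, the genes of at least 5 mean CPM with the most similar profile were ADM (r = 0.985) and PEA15 (0.984) for EPHA2, and TMEM120B (0.956) and TRIB2 (0.943) for EFNA1. For EFNB1 they were SLC7A2 (0.992) and PRDM1 (0.988), and for EFNB2 CDS2 (0.994) and TAB2 (0.989). For EPHA1 they were TFCP2L1 (0.99) and UNC5B (0.984), for EPHB4 PYGO2 (0.991) and ACOT11 (0.984), and for EPHA4 UBE2G2 (0.979) and KIF23 (0.971). EPHB2 was most like UBTF (0.941) and CYB561 (0.925), EPHB3 most like PRR15L (0.971) and FAM151A (0.969), and EPHB6 most like LTBP3 (0.981) and ABCB6 (0.98).

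The table holds 12 further Eph and ephrin genes, of which 7 passed the filter and EPHA6, EPHA7, EPHA8, EPHB1 and EFNA2 did not. On induction in vector cells 2 of the 7 fell and 0 rose, a share of 28.6% beside 30.1% of all genes. EFNB3, another transmembrane ephrin, fell from 1.56 ± 0.13 to 0.493 ± 0.23 CPM (SD, n = 3, log2 -1.65, SE 0.36, adjusted p = 0.00313, edgeR), and EFNA3 fell from 13.9 ± 0.84 to 9.24 ± 1.11 CPM (log2 -0.59, SE 0.15, adjusted p = 0.00907, edgeR). Both EFNB3 and EFNA3 also fell on induction in JUN cells (log2 -1.34 and -0.53, adjusted p = 0.0149 and 0.0233, edgeR), the 2 of 7 called there beside 21.4% of all genes. In JUN cells EFNB3 lost its call without JUN EtOH replicate 2 (adjusted p = 0.0636), JUN EtOH replicate 3 (0.0609) or JUN Dox replicate 3 (0.0649), and EFNA3 without JUN EtOH replicate 2 (0.103), JUN EtOH replicate 3 (0.051) or JUN Dox replicate 1 (0.0724). JUN without induction called 1 of the 7 (14.3%, beside 39.0% of all genes), EPHA10, a receptor without kinase activity, which fell from 6 to 19 counts to 3 or 4 counts (log2 -1.79, SE 0.53, adjusted p = 0.0164, edgeR), a call lost without vector EtOH replicate 1 (0.0643), vector EtOH replicate 3 (0.0538) or JUN EtOH replicate 1 (0.0665). JUN and YAP5SA together, against neither, called 4 of the 7, all lower, a share of 57.1% beside 38.2% of all genes. These were EFNB3 (log2 -1.48), EFNA3 (-0.83), EFNA4 (-0.50) and EPHA10 (-1.63), with adjusted p of 0.00435, 0.00065, 0.0235 and 0.0226 in edgeR. The call for EFNA4 was lost without vector EtOH replicate 1 (adjusted p = 0.0648), vector EtOH replicate 3 (0.0775) or JUN Dox replicate 1 (0.0834), and with GC offsets (0.083, or 0.0904 with the replicate block). That for EPHA10 was lost without replicate 1 (0.0862) or 3 (0.0709) of vector EtOH or replicate 1 (0.0639) or 3 (0.057) of JUN Dox, and with the block and GC offsets (0.0565). EFNA5, at mean levels of 52.7 to 56.0 CPM, was not called in any comparison. EFNA3 and EFNA4 overlap an annotated read-through transcript, so reads may be split between them. EPHA5 was listed at mean levels of 326.5 to 380.0 CPM, but its count was 0.763 to 0.836 of that of the ribosomal gene RPL6 in all 12 libraries, and the processed pseudogene RPL6P10 lies within EPHA5 outside its exons. The value of EPHA5 is therefore uncertain and was not interpreted. EPHA5 is still 1 of the 7 genes behind the shares given above, as a gene not called.

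A list of 50 genes that act with Eph receptors or ephrins, 49 of them tested, covered kinases, adaptors, exchange factors and proteases. On induction in vector cells 17 passed, 3 higher and 14 lower, and in JUN cells 13 passed, 2 higher and 11 lower. With JUN 23 rose, 4 fell and 22 were not called without induction, and 16 rose, 2 fell and 31 were not called with it. The shares called were 34.7%, 26.5%, 55.1% and 36.7% of the list, beside 30.1%, 21.4%, 39.0% and 35.6% of all genes. Of all genes, 15.6% were called higher and 14.4% lower on induction in vector cells, and 11.2% and 10.3% in JUN cells. With JUN, 20.1% of all genes were called higher and 18.9% lower without induction, and 18.4% and 17.2% with it. Median log2 fold changes of the list were -0.04, -0.06, 0.32 and 0.24.

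FYN, a Src-family kinase recruited by Eph receptors, had 0.732 ± 0.26 CPM in vector EtOH and 3.64 ± 0.28 CPM in vector Dox, and with the JUN vector 5.26 ± 0.59 CPM without and 10.5 ± 1.046 CPM with induction (SD, n = 3). It rose 4.97-fold with YAP5SA (log2 2.31, SE 0.23, adjusted p = 2.81e-06, edgeR) and 7.18-fold with JUN (log2 2.84, SE 0.22, adjusted p = 2.64e-07, edgeR). VAV3, a signalling protein that binds activated Eph receptors, fell with YAP5SA (log2 -1.52, SE 0.28, adjusted p = 0.000814, edgeR) and with JUN (log2 -2.21, SE 0.30, adjusted p = 5.92e-05, edgeR). VAV3 did not pass on induction in JUN cells (log2 0.48, adjusted p = 0.367, edgeR) or with JUN under induction (log2 -0.22, adjusted p = 0.62, edgeR). Several other partners fell on induction in both vector and JUN cells: the adaptor GRB7 (log2 -1.90 and -1.20), the PI3-kinase subunit PIK3R1 (-1.18 and -1.21) and NGEF, the exchange factor ephexin (-1.66 and -1.56), all with adjusted p at or below 0.00054 in edgeR. RGS3, a regulator of G proteins that binds B-type ephrins, fell with YAP5SA (-1.11) and with JUN (-1.20). RGS3 did not pass on induction in JUN cells (log2 -0.29, adjusted p = 0.197, edgeR) or with JUN under induction (log2 -0.39, adjusted p = 0.0598, edgeR). ARHGEF16 fell with JUN without and with induction (-1.07 and -1.23), and DOCK4, an exchange factor of the Rac pathway, rose (1.46 and 1.40). ARHGEF16 also fell on induction in vector and JUN cells (log2 -0.75 and -0.91, adjusted p = 0.000303 and 0.000166, edgeR). TIAM1, a Rac exchange factor, rose with JUN without induction (1.24) and with it (0.90, adjusted p = 0.000217, edgeR). On induction TIAM1 fell in JUN cells (log2 -0.52, adjusted p = 0.0138, edgeR) and did not pass in vector cells (log2 -0.175, adjusted p = 0.396, edgeR). The changes given without their own adjusted p for RGS3, ARHGEF16, DOCK4 and TIAM1 passed in edgeR with adjusted p at or below 3.97e-05. For the partner changes named in this paragraph as passing, the libraries of the groups compared did not overlap. These genes were named for the size of their changes, and the share of all genes without overlap is not given. On the same list, CBL passed with JUN under induction (log2 0.58, adjusted p = 0.0465, edgeR) with 2 of 3 JUN Dox libraries above all vector Dox libraries.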

How the data were processed

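The deposited values are raw counts of single-end reads per gene for 12 libraries of poly(A) RNA. The authors trimmed reads with cutadapt (4.2 in the submitters' processing notes), aligned them to hg19 with Bowtie2 (2.3.5.1 in the same notes) and counted overlaps with genes. The gene annotation and any use of strand are not given in the sources used here. Bowtie2 does not split reads over introns, so reads across exon junctions are largely lost, and genes that overlap can share reads.

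From these counts, genes were filtered with filterByExpr (minimum count 10, minimum total 15) and tested with edgeR 4.0.16 (R 4.3.3, TMM factors, robust quasi-likelihood fit of 4 group means, Benjamini-Hochberg adjustment over 14775 genes, threshold 0.05). The biological coefficient of variation was 12.5%. SEs were derived from the log2 fold change and its F statistic. CPM values use library totals over the tested genes times the TMM factor. The test was also run on simulated counts, with the same spread for every gene and few genes changed in vector Dox only. That setting is simpler than these data, so the run does not measure error rates here.

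RefSeq named 99.4% of the gene IDs. Positions are 1-based from GENCODE on GRCh37, the assembly of hg19, and promoters are from RefSeq on GRCh38.p14, where all 10 members matched. Levels per kilobase use the union of exons. All 10 members are named, together with the other tested family genes, and partners called at a log2 change of 1 or more in either direction. The 2 genes most like each member were taken by Pearson's r of log2 CPM (prior count 2). Genes outside these rules (ZYX, SLC12A9, RPL6) were added after their values were seen. The members and lists were chosen with earlier results of these data known. Alternatives were DESeq2 1.42.0, RLE or upper-quartile factors, no filter, a mean of at least 5 CPM, only the libraries compared, the replicate number as a block, GC offsets, both together, and each library left out in turn.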

Additional observations from a re-analysis of the deposited data

Results flagged for a closer look

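4 genes were picked out because the response to YAP5SA differed between JUN and vector cells by the interaction term of edgeR. They were EFNA1 (-1.50 on the log2 scale, adjusted p = 0.002), EPHA2 (-0.72, adjusted p = 0.0337), FYN (-1.32, adjusted p = 0.0387) and VAV3 (1.99, adjusted p = 0.0408). The interaction was called for 2 of 10 members, 0 of the 7 other family genes tested and 2 of 49 partners tested. These are shares of 20.0%, 0% and 4.1%, beside 1.12% of all genes. Partners could be flagged only if already called at a log2 change of 1 or more in a pairwise comparison of these data. EFNA1 was called in all 20 alternatives. The call for FYN was lost in 9 fits, all with 1 library left out: without vector EtOH replicate 1 (adjusted p = 0.0874) or 3 (0.129), vector Dox replicate 2 (0.0667) or 3 (0.0984), JUN EtOH replicate 1 (0.105) or 2 (0.11), and JUN Dox replicate 1 (0.0619), 2 (0.0692) or 3 (0.0799). The call for VAV3 was lost in 13 of 19 alternatives: without vector EtOH replicate 1 (adjusted p = 0.0902), 2 (0.0954) or 3 (0.0962), vector Dox replicate 2 (0.0945) or 3 (0.0834), JUN EtOH replicate 1 (0.126), 2 (0.116) or 3 (0.0725), JUN Dox replicate 2 (0.16) or 3 (0.0665), with no filter (0.052), with the replicate block (0.0661) and with that block and GC offsets (0.0597). VAV3 was at 9 to 54 counts per library. Single outlying libraries were not tested for, since each group held 3.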

How the results depend on the processing

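Most fold changes kept their direction and their side of the threshold: of the values recomputed for members and for the other genes named, 2223 did, 90 lost a call, 8 gained one and 39 changed sign, all 39 from values that were not called. With a mean of at least 5 CPM only 7 members were tested, and 3, 5 and 3 were called for induction in vector cells, JUN without induction and JUN with induction. With only the libraries compared, 3 members were called for JUN with induction. With 1 library left out, 1 to 2 members were called for the interaction. The sign changes were small except for EPHB6. For EFNB1, induction in vector cells became 0.100 with GC offsets and 0.099 with the replicate block and GC offsets, and ranged from -0.077 to 0.018 with 1 library left out. Induction in JUN cells became 0.046 and 0.044, with a range of -0.070 to 0.023. EPHB4 with JUN and induction became 0.018 with GC offsets and 0.020 with the block as well, with a range of -0.16 to 0.04 with 1 library left out. Between JUN alone and YAP5SA alone, EPHB2 became 0.004 and EFNA1 0.018 at 5 CPM, EFNA1 became 0.008 with the block and GC offsets, and the ranges were -0.13 to 0.02 for EPHB2 and -0.11 to 0.14 for EFNA1. The interactions of EPHB2 and EFNB1 became 0.010 and 0.014 with upper-quartile factors, that of EFNB1 became 0.001 with no filter, and with 1 library left out they ranged from -0.15 to 0.10 for EPHB2, -0.058 to 0.055 for EFNB1, -0.151 to 0.074 for EFNB2, 0.20 to 1.93 for EPHB3 and -1.84 to 2.70 for EPHB6. The EPHB6 value of -1.84 came without JUN Dox replicate 3, when the group held 0 counts. The cause of the other changes was not tested.

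Over all genes, the interaction called 165 genes, 97 without vector EtOH replicate 3 and 340 in DESeq2. JUN without induction called 5766 and 3823 without JUN EtOH replicate 1, induction in JUN cells 3168 and 2082 without JUN EtOH replicate 2, and JUN with induction 5267 and 3439 with only the libraries compared. Deviations of same-numbered libraries correlated at -0.258 to 0.466, over 0.1 in 7 of 18 pairs. Whether the numbers paired the samples was not tested, and the main fit used no block. With the replicate block the interaction called 197 genes, and a library was most like its own number in 22 of 36 comparisons. Ordered by the longest transcript in place of the union of exons, 7, 6 and 8 of 10 positions were kept in vector EtOH, vector Dox and JUN EtOH. Depth limits EPHA4, EPHB3 and EPHB6, at 0 to 24 counts in at least 1 group each.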
